A study of Mus musculus with 16 samples.

Results

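The Toll-like receptors examined here are the products of 10 genes, Tlr1 to Tlr9 and Tlr13, chosen by name from the 24421 rows of a table of gene counts. All 10 had more than 10 counts in at least 4 libraries and are among the 14565 genes tested. Tlr8 met this only with the CON and MAL libraries counted. The counts come from 16 libraries (7 MAL-BG, 5 MAL, and 4 CON) of mouse brain cells that carry CD11b, an integrin on microglia and other myeloid cells. These cells were taken from enzymatically dissociated tissue with magnetic beads. All mice were female C57BL/6J, placed at weaning on their diet for about 1 month. CON mice were fed standard chow and MAL mice a diet of equal energy that is poor in protein and fat. MAL-BG mice were fed the MAL diet and were also gavaged with a mix of E. coli and Bacteroidales, while CON and MAL mice were gavaged with PBS. The sample labels name cortical tissue, and the methods name whole cerebra. The study examined TLR4 on microglia by flow cytometry as a marker of immune activation, so the question addressed here is whether transcripts of the receptor family differed with diet and with exposure to gut bacteria.

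Toll-like receptors are membrane proteins that recognize conserved microbial molecules. In mice, TLR1, TLR2, TLR4, TLR5, and TLR6 work at the cell surface, where they sense lipoproteins, lipopolysaccharide, and flagellin. TLR3, TLR7, TLR8, TLR9, and TLR13 sit in endosomes and recognize nucleic acids. Ligand binding recruits the adaptors MyD88 or TRIF, and the kinases and ubiquitin ligases downstream activate NF-kB and interferon regulatory factors. Microglia, the resident macrophages of the brain, are the main brain cells known to carry most of these receptors.

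Library totals ranged from 10312703 to 13461574 counts in CON, from 10864121 to 12819982 in MAL, and from 14191791 to 18705202 in MAL-BG. Values in CPM are counts relative to the scaled library total. The 14 microglia markers summed to between 19048 and 30717 CPM in CON, between 19576 and 33327 in MAL, and between 40653 and 55297 in MAL-BG (two-sided exact permutation tests, p = 0.00303 and p = 0.00126, the smallest p these designs allow), and none of them was at 0. In bulk RNA, fewer cells of a type and less RNA per cell cannot be told apart. Sums of 13 neutrophil markers lay between 489 and 1230 CPM in the 9 CON and MAL libraries, while MAL-BG libraries 2, 5, and 7 reached 2688, 14356, and 3476 CPM. The 10 choroid plexus markers summed to between 6460 and 53951 CPM in CON and MAL and to between 1770 and 16522 CPM in MAL-BG (exact permutation tests, p = 0.00606 and p = 0.0126). CON library 1 and MAL library 4 held the highest sums of early response markers of their groups (37594 and 43667 CPM) and of border macrophage markers (2343 and 2114 CPM). Relative to CON, the mean sum in MAL-BG was 0.0941 times for neuron markers, 0.632 times for astrocyte, 0.665 times for monocyte, 0.873 times for border macrophage, 1.19 times for oligodendrocyte, 1.47 times for dendritic cell, 1.59 times for endothelium, 2.08 times for B lymphocyte, and 2.46 times for T and NK lymphocyte markers. A sum follows its most abundant genes, and of 8 dendritic cell markers 2 were called lower and 1 higher against CON (median log2 fold change -0.46), while of 5 B lymphocyte markers 1 was called higher (median 0.28). Of 5 erythroid markers, the 4 haemoglobin genes were at 0 in all libraries. The part of these differences in the results on the receptors was not tested, except where values without these libraries are given.

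In both comparisons with MAL-BG, 1 receptor gene was higher and 1 was lower. Tlr3 was 2.12-fold higher in MAL-BG than in CON and 1.75-fold higher than in MAL, and Tlr8 was 4.17-fold and 6.73-fold lower. The other 8 were not called, where a call is an adjusted p under 0.05 in edgeR's quasi-likelihood test and an absolute log2 fold change above 0.58. Among all 14565 genes tested, 33.1% were called against CON, with 11.4% of all genes called higher and 21.7% called lower with the bacteria. Against MAL, 30.4% were called, 10.2% as higher and 20.2% as lower. A count of 2 called among 10 receptors is near these shares and is no result about the family. With the libraries scaled to microglia markers 7 and 8 were called, where 9005 and 8331 of all 14565 genes were. The median log2 fold change of the 10 receptors was 0.02 against CON and -0.13 against MAL, beside -0.04 and -0.03 for all genes tested. Without the fold threshold, 4 receptors had an adjusted p under 0.05 against CON (Tlr2, Tlr3, Tlr8, and Tlr13) and 3 against MAL (Tlr2, Tlr3, and Tlr8), where 45.1% and 44.3% of all genes did. Without the MAL-BG libraries 2, 5, and 7, which held the high neutrophil markers, 3 receptors were called against CON, Tlr13 being the third at 0.68 (edgeR, adjusted p = 0.0464), and 2 against MAL. The 7 MAL-BG libraries enter both comparisons, which are therefore not independent.

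**Figure D1:**
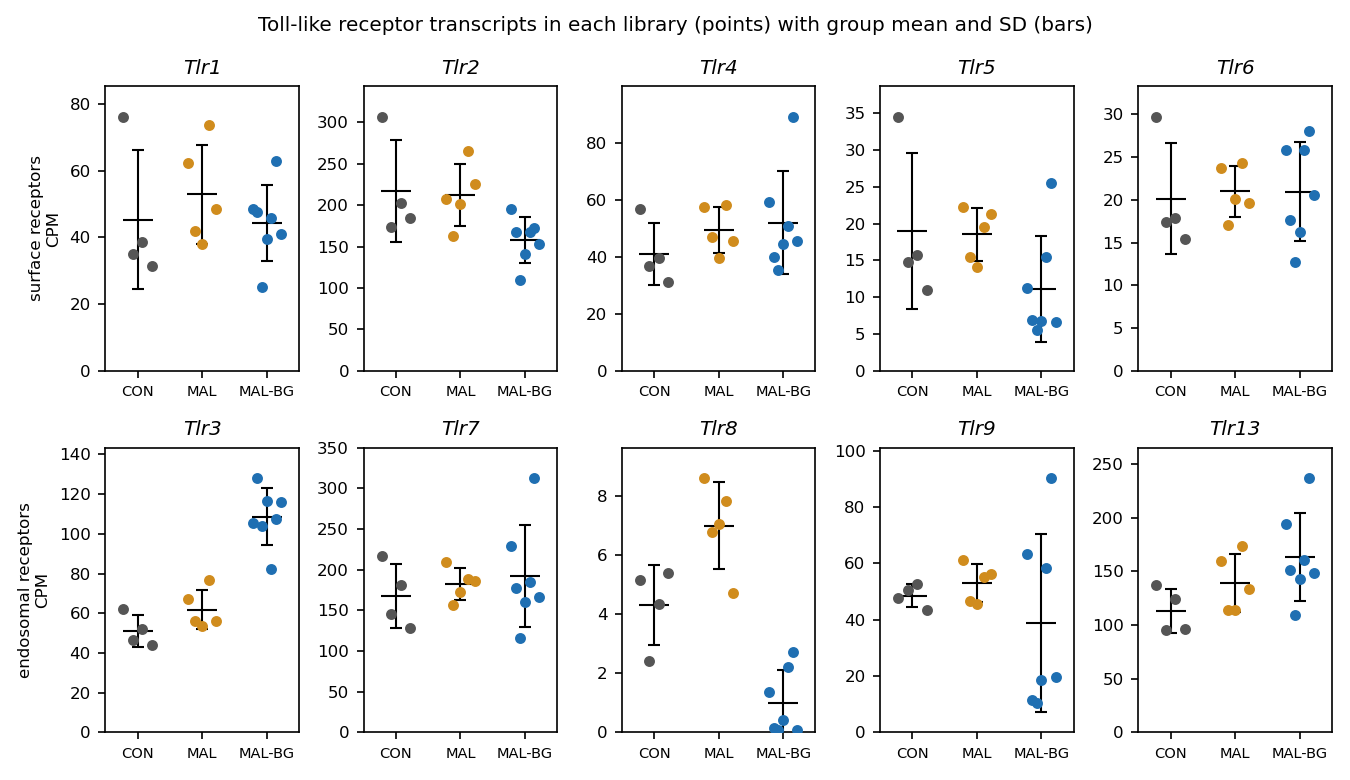
CPM of the 10 Toll-like receptor genes (vertical axes, linear, each from 0) in 4 libraries of CON, 5 of MAL, and 7 of MAL-BG, with 1 point per library and bars for the group mean and SD. The 7 MAL-BG libraries of Tlr3 sit between 82.1 and 128 CPM, above all others, while those of Tlr9 fall into a low and a high set.

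The order of the receptors was compared per kilobase of exon. Tlr2, which binds bacterial lipoproteins, had the highest level in CON, 71.9 ± 20.3 CPM per kb (SD, n = 4), followed by Tlr7 with 41.1 ± 9.63 and Tlr13 with 26.3 ± 4.81. Tlr7 recognizes single-stranded RNA, and Tlr13 bacterial ribosomal RNA. The ranges of Tlr2 and Tlr7 did not overlap in CON or in MAL, whereas they overlapped in MAL-BG, where Tlr2 averaged 52.4 ± 9.09 and Tlr7 47.1 ± 15.4 CPM per kb (SD, n = 7). Tlr7 and Tlr13 overlapped as neighbours in every group. Tlr13 did not overlap with the gene of the next lower mean in any group. It did overlap with Tlr1 in CON, where the lowest Tlr13 value was 22.09 and the highest Tlr1 value 22.76 CPM per kb. In MAL-BG it overlapped with Tlr9 (25.40 and 25.97 CPM per kb). Below Tlr13, Tlr9, Tlr1, Tlr3, Tlr4, Tlr6, and Tlr5 averaged between 3.97 and 13.96 CPM per kb in CON, with overlapping ranges from each to the next. Tlr8 was the lowest in every group, with 1.20 ± 0.38 CPM per kb in the CON group, 1.95 ± 0.41 in the MAL group, and 0.28 ± 0.31 in the MAL-BG group. Tlr3 stood at the sixth place in CON (9.83 ± 1.54 CPM per kb) and in MAL (11.9 ± 1.88) and at the fourth in MAL-BG (20.8 ± 2.76), though in MAL-BG its range overlapped that of Tlr1, the next below.

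Tlr3, the endosomal receptor for double-stranded RNA, was the receptor whose libraries separated by group. Its gene lies on the minus strand of chromosome 8 (chr8:45395665-45411075, GRCm38). It held 62.1, 46.5, 52.1, and 44.1 CPM in the CON libraries 1 to 4. In the MAL libraries 1 to 5 it held 67.0, 55.9, 53.5, 76.7, and 56.3 CPM. The MAL-BG libraries ranged from 82.1 to 128 CPM, with a median of 107. All 7 MAL-BG libraries were therefore above all 9 others, as was the case for 6.17% of all genes tested. Against CON this was a log2 fold change of 1.08 ± 0.14 (SE; 95% confidence interval 0.79 to 1.38, edgeR's quasi-likelihood test, adjusted p = 3.36e-05). It was 0.81 ± 0.13 against MAL (0.54 to 1.08, edgeR, adjusted p = 0.000154). Leaving out 1 library at a time gave 1.01 to 1.17 against CON and 0.75 to 0.89 against MAL, and Tlr3 was called each time. Without the MAL-BG libraries 2, 5, and 7 together, the values were 1.16 and 0.87. A transcript on the opposite strand, Gm45542, overlaps exons of Tlr3 and shares 5.63% of its 42-base words, 42 bases being the read length. The strand option of the counting is not given in the sources used here, so reads of Gm45542 could have been added to Tlr3.

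Scaling the libraries to the microglia markers gave Tlr3 a smaller difference that was no longer called. Relative to the geometric mean of these markers, its log2 fold change was 0.31 against CON (edgeR, adjusted p = 0.0541) and 0.11 against MAL (edgeR, adjusted p = 0.465). Per 1000 CPM of summed microglia markers, the CON libraries held 2.16 ± 0.14 CPM of Tlr3 (SD, n = 4), the MAL libraries 2.46 ± 0.18 (SD, n = 5), and the MAL-BG libraries 2.26 ± 0.26 (SD, n = 7), and the libraries of the groups overlapped. On this scale the median over all genes moved to -0.84 (CON) and -0.76 (MAL) in log2 units, so Tlr3 stood above that median in both.

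Tlr8, an endosomal receptor for single-stranded RNA that adjoins Tlr7 on the X chromosome, was the least abundant member and fell the most. Its gene lies at chrX:167241123-167264329 on the minus strand, 39050 bases from Tlr7. It had 5.14, 2.41, 4.33, and 5.37 CPM in the CON libraries 1 to 4, which is 26 to 71 counts a library. In MAL it had 8.60, 6.79, 7.05, 7.82, and 4.70 CPM, or 59 to 101 counts. In MAL-BG it ranged from 0.07 to 2.73 CPM with a median of 0.44, and the 7 libraries held 121 counts together. All MAL-BG libraries were below all MAL libraries, as in 8.95% of all genes, while the highest MAL-BG library lay within the range of CON. Tlr8 changed by -2.06 ± 0.65 (SE) on the log2 scale relative to CON (95% confidence interval -3.42 to -0.69, edgeR, adjusted p = 0.0162) and by -2.75 ± 0.62 relative to MAL (-4.06 to -1.44, edgeR, adjusted p = 0.00218). Tlr8 was lower in MAL-BG under every scaling tried and was called with each library left out, at -2.52 to -1.79 against CON and -3.21 to -2.49 against MAL. In the MAL-BG libraries 2, 3, and 7 only 1 or 2 counts were seen, so the depth of these libraries does not fix how far Tlr8 fell there. Library 4 held 7 counts, so Tlr8 passed the count filter only through CON and MAL, the groups where it was higher.

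Tlr9, the receptor for unmethylated CpG DNA (chr9:106222598-106226876, plus strand), showed no difference that passed the test, and its MAL-BG libraries spread far more than the others. The CON libraries 1 to 4 had 47.8, 50.6, 52.6, and 43.3 CPM. The MAL libraries 1 to 5 had 61.2, 46.6, 45.4, 55.0, and 56.3 CPM. The 7 MAL-BG libraries, in the order of their numbers, had 63.4, 11.7, 10.3, 18.6, 58.3, 90.3, and 19.7 CPM. Libraries 2, 3, 4, and 7 were thus below every CON and MAL library, and libraries 1, 5, and 6 were within or above their range. The coefficient of variation was 8.26% for CON, 12.7% for MAL, and 81.1% for MAL-BG. Relative to CON the log2 fold change was -0.32 ± 0.46 (SE; 95% confidence interval -1.30 to 0.66, edgeR, adjusted p = 0.601), and relative to MAL it was -0.44 ± 0.43 (-1.36 to 0.48, edgeR, adjusted p = 0.424). Its size rested on single libraries. Without MAL-BG library 6 it was -0.68 against CON and -0.80 against MAL, and without library 2 it was -0.08 and -0.22.

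The same 4 MAL-BG libraries were the lowest for 7 further receptors, Tlr2, Tlr4, Tlr5, Tlr6, Tlr7, Tlr8, and Tlr13, while Tlr1 and Tlr3 had other libraries among their lowest 4. Among all genes tested, 14.5% had these 4 as their lowest MAL-BG libraries. For Tlr8 the 7 libraries had 1.36, 0.15, 0.07, 0.44, 2.22, 2.73, and 0.07 CPM. Tlr5, the flagellin receptor, had 11.2, 6.97, 5.58, 6.79, 15.5, 25.5, and 6.60 CPM. The gene most alike to Tlr9 over the 16 libraries was Cd180, which encodes RP105, a receptor related to TLR4. It had between 129 and 149 CPM in CON, between 107 and 178 in MAL, and 147, 31.3, 26.7, 45.4, 165, 232, and 46.2 CPM in the MAL-BG libraries 1 to 7. Tlr3 did not follow this order, with 105, 128, 104, 117, 82.1, 107, and 116 CPM. Of the libraries with high neutrophil markers, 2 and 7 were among these 4 and 5 was not. Their microglia markers summed to 49455, 40653, 49038, and 53870 CPM beside 55297, 40974, and 48165 CPM in libraries 1, 5, and 6. Their totals were 14819828, 14191791, 16863746, and 14869354 counts, which are the lowest 4 of the 7. Whether the depth has a part in this was not tested. The table of counts is not tied to the sample titles, so no label tells these libraries apart.

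**Figure D2:**
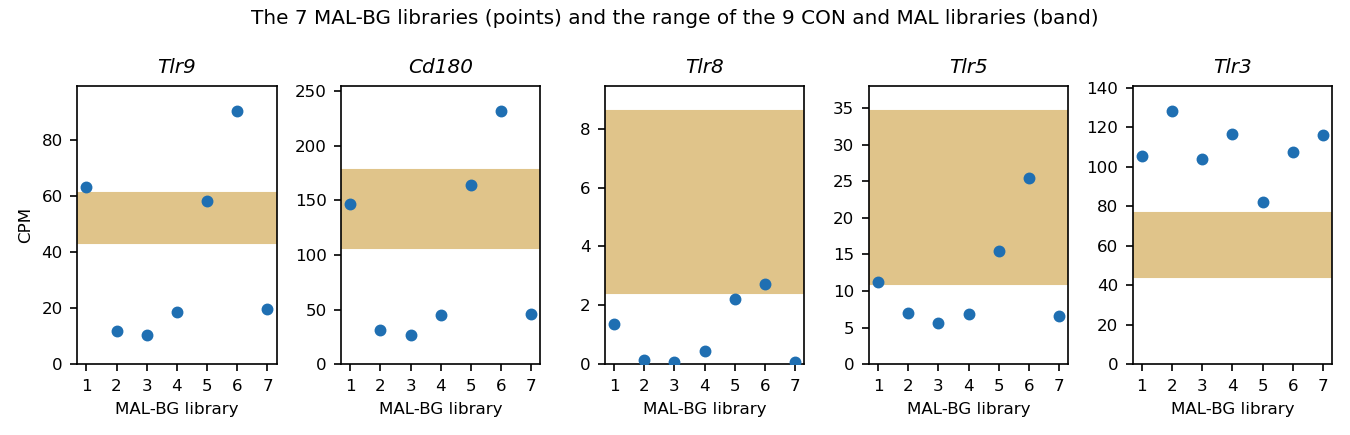
CPM (vertical axes, linear, from 0) of Tlr9, Cd180, Tlr8, Tlr5, and Tlr3 in the 7 MAL-BG libraries by library number (horizontal axes), with a band for the range of the 9 CON and MAL libraries. Libraries 2, 3, 4, and 7 are below the band for the first 4 genes, with Tlr9 at 11.7, 10.3, 18.6, and 19.7 CPM, while all 7 are above it for Tlr3. For Tlr8 libraries 1 and 5, at 1.36 and 2.22 CPM, are also below it.

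The stretches of 250 bases before the RefSeq start sites (GRCm38.p6) are shown for the receptors that moved most between or within groups. Capitals mark matches to short motifs searched on both strands. Tlr3 holds a match to the NF-kB motif GGGNNTTTCC, which 1.41% of 32851 mouse promoter windows hold. The Tlr3 window lies inside the gene span given above, which begins further upstream, at base 45411075. Its match is therefore upstream of the start site used for this window, but inside the gene span. Tlr8 and Tlr9 each hold a PU.1 box, GAGGAA or its complement TTCCTC (23.25% of windows), and Tlr9 in addition an AP-1 motif, TGANTCA (6.75%).
Tlr3, chr8:45410381-45410630, minus strand: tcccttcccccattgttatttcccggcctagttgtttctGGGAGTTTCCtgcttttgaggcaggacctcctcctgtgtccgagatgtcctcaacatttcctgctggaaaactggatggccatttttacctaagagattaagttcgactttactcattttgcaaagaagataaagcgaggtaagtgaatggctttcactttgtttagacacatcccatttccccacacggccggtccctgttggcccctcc
Tlr8, chrX:167264330-167264579, minus strand: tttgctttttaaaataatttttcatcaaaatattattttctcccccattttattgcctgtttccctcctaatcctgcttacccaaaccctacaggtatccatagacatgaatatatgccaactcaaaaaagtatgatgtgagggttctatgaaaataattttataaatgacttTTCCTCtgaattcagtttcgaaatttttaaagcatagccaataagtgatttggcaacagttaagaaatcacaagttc
Tlr9, chr9:106222348-106222597, plus strand: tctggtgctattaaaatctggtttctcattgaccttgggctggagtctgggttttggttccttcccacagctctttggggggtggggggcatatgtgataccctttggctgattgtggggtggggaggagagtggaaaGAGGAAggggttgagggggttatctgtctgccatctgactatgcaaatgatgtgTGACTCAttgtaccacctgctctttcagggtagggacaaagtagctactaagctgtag
The PU.1 box also stands before Tlr1 and Tlr13, and Sp1 boxes (GGGCGG, 32.74% of windows) before Tlr2 and Tlr5. Before a start of Tlr6 stand overlapping interferon-stimulated response elements, GAAANNGAAA, which 2.98% of windows hold. Windows of Tlr4 and Tlr7 were not analysed here. A match describes letters only and says nothing about whether a factor binds.

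Tlr13 and Tlr7, the more abundant endosomal receptors, showed small differences. Tlr13 had 137, 95.1, 124, and 96.6 CPM in CON and 160, 114, 114, 173, and 134 CPM in MAL. In MAL-BG it ranged from 109 to 237 CPM, with a median of 151, and overlapped both other groups. Its log2 fold change against CON was 0.53 ± 0.19 (SE), with an adjusted p of 0.0296 in edgeR, below the fold threshold. Leaving out 1 library at a time gave 0.42 to 0.62, with an adjusted p under 0.05 in 12 of 16 fits, and Tlr13 was called without CON library 1 and without each of the MAL-BG libraries 2, 3, 4, and 7. With microglia marker scaling the sign turned, to -0.27. Against MAL the difference was 0.23 ± 0.17 (edgeR, adjusted p = 0.283). For Tlr7 the estimates were 0.20 ± 0.21 relative to CON and 0.07 ± 0.19 relative to MAL (edgeR, adjusted p = 0.466 and 0.781), and MAL-BG library 6 was the highest of all at 313 CPM.

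**Figure D3:**
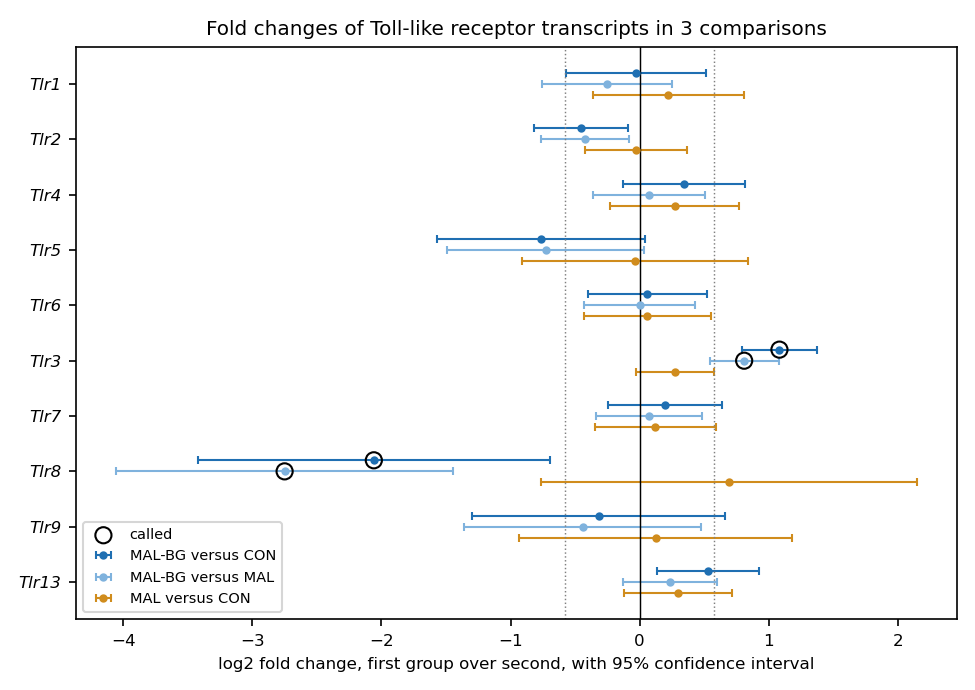
Log2 fold changes (horizontal axis) of the 10 receptor genes (rows) in 3 comparisons, with points for the edgeR estimate, bars for the 95% confidence interval, circles for called genes, and dotted lines at a fold threshold of 0.58. Tlr3 at 1.08 and 0.81 and Tlr8 at -2.06 and -2.75 are circled in the MAL-BG comparisons, and no gene is circled between MAL and CON.

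Among the surface receptors, Tlr2 had a lower mean in MAL-BG, with a difference under the fold threshold. It had 307, 173, 202, and 185 CPM in CON and 207, 162, 202, 265, and 225 CPM in MAL. In MAL-BG it ranged from 109 to 195 CPM with a median of 167, so both groups overlapped with MAL-BG. Its log2 fold change was -0.46 ± 0.17 (SE) relative to CON (edgeR, adjusted p = 0.0404) and -0.43 ± 0.16 relative to MAL (edgeR, adjusted p = 0.0418). This depended on the scaling and on few libraries. Tlr2 was called with microglia marker scaling, at -1.23 and -1.15 (edgeR, adjusted p = 1.2e-06 and 1.59e-06), and against CON with length and GC offsets, at -0.61 (edgeR, adjusted p = 0.00756), whereas these offsets with mean log2 CPM scaling gave -0.33 and -0.31 (edgeR, adjusted p = 0.194 and 0.203). Without CON library 1 the value against CON was -0.26 (edgeR, adjusted p = 0.210), and the adjusted p stayed under 0.05 in 9 of 16 fits against CON and 7 of 16 against MAL.

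Tlr5 had 34.6, 14.75, 15.8, and 10.98 CPM in CON and between 14.1 and 22.3 CPM in MAL. Its log2 fold change was -0.76 ± 0.38 (SE) against CON and -0.73 ± 0.36 against MAL, neither of which passed the test (edgeR, adjusted p = 0.114 and 0.1103). MAL-BG library 6, with 25.5 CPM, had the largest part in this, since without it the values were -1.11 (edgeR, adjusted p = 0.00971) and -1.07 (edgeR, adjusted p = 0.0089). CON library 1 worked the other way, and without it the value against CON was -0.31.

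Tlr4, the receptor for lipopolysaccharide, had 56.7, 36.9, 39.5, and 31.1 CPM in CON and 57.6, 47.0, 39.7, 58.1, and 45.5 CPM in MAL. In MAL-BG it ranged from 35.4 to 89.2 CPM with a median of 45.5, and the groups overlapped. The estimate was 0.34 ± 0.22 (SE, log2) relative to CON (95% confidence interval -0.13 to 0.81, edgeR, adjusted p = 0.223) and 0.07 ± 0.21 relative to MAL (-0.36 to 0.51, edgeR, adjusted p = 0.802). The intervals leave room for a rise as well as a small fall, and with microglia marker scaling the sign turned to negative in both, at -0.45 and -0.67 (edgeR, adjusted p = 0.0218 and 0.00117).

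Tlr1 and Tlr6, each of which pairs with TLR2 to bind lipoproteins, showed no difference that passed the test. Tlr1 ranged from 31.3 to 76.2 CPM in CON, from 38.0 to 73.5 in MAL, and from 25.2 to 62.8 in MAL-BG. Tlr6 ranged from 15.4 to 29.7, from 17.1 to 24.3, and from 12.7 to 27.99 CPM. Against CON the log2 fold changes were -0.03 ± 0.26 (SE) for Tlr1 and 0.06 ± 0.22 for Tlr6 (edgeR, adjusted p = 0.934 and 0.839). Against MAL they were -0.25 ± 0.24 and 0.00 ± 0.20 (edgeR, adjusted p = 0.402 and 0.997). Tlr1 turned to 0.33 against CON without CON library 1, in which it had 76.2 CPM.

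The values of this pair are uncertain because their sequences are partly the same. Both lie on the minus strand of chromosome 5, 19491 bases apart, and 21.72% of the 42-base words of the coding sequence of Tlr1 also occur in that of Tlr6. The longest identical stretch has 229 bases, at chr5:64925537-64925765 in Tlr1 and chr5:64953828-64954056 in Tlr6. It is shown because a read pair with both mates wholly within it cannot be assigned to either gene.
Tlr1 and Tlr6 shared coding stretch: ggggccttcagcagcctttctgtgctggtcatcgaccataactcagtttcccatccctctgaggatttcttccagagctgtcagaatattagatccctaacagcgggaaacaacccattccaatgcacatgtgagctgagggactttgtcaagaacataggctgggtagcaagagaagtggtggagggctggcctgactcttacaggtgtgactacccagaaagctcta
Tlr2, Tlr3, Tlr5, Tlr7, Tlr8, Tlr9, and Tlr13 shared no 42-base word with another transcript on the same strand, and Tlr4 shared 0.16%.

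Within a library, the receptors can be compared with each other without any scaling between libraries. Of the summed CPM per kb of the 10 receptors, Tlr2 made up 34.7% to 38.9% in CON, 29.9% to 35.6% in MAL, and 20.2% to 29.3% in MAL-BG. Tlr3 made up 4.55% to 5.44%, 5.10% to 6.18%, and 7.26% to 15.2%. Tlr13 made up 12.2% to 14.9%, 14.1% to 16.1%, and 18.2% to 19.4%. Tlr8 made up 0.41% to 0.944%, 0.618% to 1.09%, and 0.0114% to 0.303%. For these 4 genes the MAL-BG libraries did not overlap with the others. In CPM, all MAL-BG libraries were above all others for 1 member, Tlr3, and below all others for 0. The 10 shares of a library have a fixed sum, so a lower share of one member raises those of others. How often shares within other sets of genes separate in this way was not tested. Tlr7 averaged 21.2%, 21.4%, and 23.2%, with overlap, and Tlr4 averaged 3.78%, 4.24%, and 4.62%, also with overlap. These shares show unequal change among the members and not which member changed.

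The directions of several members depended on how the libraries were scaled. With RLE or upper-quartile scaling each of the 10 fold changes against CON stayed within 0.03 of its TMM value on the log2 scale. With microglia marker scaling, 7 receptors were called against CON and 8 against MAL, all as lower in MAL-BG. Of all 14565 genes, 9005 and 8331 were called with this scaling, so these counts are no result about the family. On that scale Tlr4, Tlr6, Tlr7, and Tlr13 turned from positive to negative in both comparisons, and 0.888% of the called genes against CON were higher. With gene length and GC offsets combined with mean log2 CPM scaling, 61.55% of all called genes against CON were higher in MAL-BG, in place of 34.4%, and the receptor values moved up, with Tlr3 at 1.31 and Tlr13 at 0.70.

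**Figure D4:**
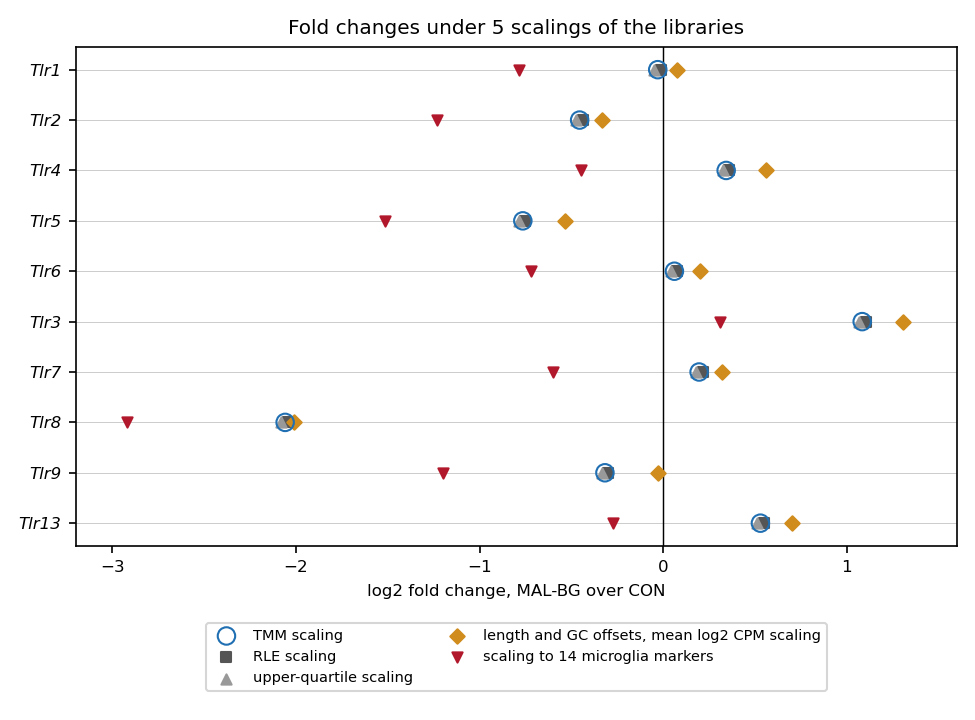
Log2 fold changes between MAL-BG and CON (horizontal axis) of the 10 receptor genes (rows) under 5 scalings of the libraries, with 1 symbol per scaling. Scaling to the 14 microglia markers moves all members down and takes Tlr4, Tlr6, Tlr7, and Tlr13 across 0, while Tlr3 stays above 0 at 0.31 and Tlr8 below it at -2.92.

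The diet alone gave no call in edgeR for any of the 10 receptors or any of the 14565 genes (0%). An unadjusted p under 0.05 was reached by 0 receptors and 212 genes, and DESeq2 also called 0 receptors. The largest estimates of MAL against CON were 0.69 ± 0.69 (SE) for Tlr8, 0.30 ± 0.20 for Tlr13, 0.27 ± 0.14 for Tlr3, and 0.27 ± 0.24 for Tlr4 on the log2 scale. The 95% confidence interval of Tlr3 ran from -0.03 to 0.58, and that of Tlr8 from -0.77 to 2.15. Their median was 0.17 beside -0.02 for all genes.

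The wider pathway was described with 69 genes in 7 lists, of which all but Ifnb1 were tested. Between MAL-BG and CON, 7 of 68 genes were called higher and 20 lower, and between MAL-BG and MAL 8 were called higher and 17 lower. Over all genes tested, the shares were 11.4% higher and 21.7% lower against CON and 10.2% and 20.2% against MAL, so the higher calls lie near the background and the lower ones somewhat above it, and nothing is read from this about the lists. Against CON and MAL respectively, the higher calls numbered 1 and 1 of 6 co-receptors, 2 and 3 of 6 folding and trafficking genes, 2 and 1 of 10 inhibitors, and 2 and 3 of 14 cytokines and chemokines, and the lower calls 2 and 3, 1 and 1, 4 and 3, and 8 and 5. Adaptors had 2 lower calls and transcription factors 3 in either comparison, with 0 higher. The median log2 fold changes of the 68 genes were -0.07 and -0.18. Leaving out the MAL-BG libraries 2, 5, and 7 gave 26 and 22 calls in all, with 4 folding and trafficking genes called higher in both comparisons. Between MAL and CON 0 were called, with 8 at an unadjusted p under 0.05 in edgeR, and DESeq2 called 0 as well.

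Genes that serve the receptors at the membrane moved in both directions. Of 6 co-receptors, Ly86, the partner of RP105, rose in MAL-BG against CON (log2 fold change 0.74 ± 0.18 SE, edgeR, adjusted p = 0.00296), though it stood at -0.05 with microglia marker scaling. Cd14, the co-receptor that hands lipopolysaccharide to TLR4, fell from 856 CPM on average in CON and 720 in MAL to 420 in MAL-BG (-1.03 ± 0.24 against CON, edgeR, adjusted p = 0.00307). Its CON libraries had 1308, 637, 742, and 736 CPM, all above the 7 MAL-BG libraries, as in 11.1% of all genes. Lbp, the lipopolysaccharide binding protein, fell by 2.29 on the log2 scale (SE 0.47, edgeR, adjusted p = 0.00113). Its libraries followed those of the choroid plexus markers in part, with the highest values of their groups in CON library 2 (176 CPM), MAL library 2 (124 CPM), and MAL-BG library 3 (39.6 CPM), and the part of these markers was not tested. Ly96, which encodes the TLR4 partner MD-2, averaged 11.4 CPM in CON libraries, 11.6 in MAL libraries, and 12.9 in MAL-BG libraries (0.17 ± 0.29 against CON, edgeR, adjusted p = 0.646).

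Of 6 genes for folding and trafficking, 2 rose and 1 fell against CON. Unc93b1, the chaperone that carries the nucleic acid receptors to endosomes, rose from 1150 CPM on average in CON and 1193 in MAL to 2119 in MAL-BG (0.88 ± 0.24 SE against CON, edgeR, adjusted p = 0.00668). Hsp90b1, the endoplasmic reticulum chaperone gp96, rose by 0.92 ± 0.20 (edgeR, adjusted p = 0.00168). Rab7b, a GTPase of late endosomes, fell by 1.31 (SE 0.28, edgeR, adjusted p = 0.00132). With microglia marker scaling 0 of these 6 were called higher and 1 lower.

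The signaling genes were mostly not called. Of 6 adaptors, Sarm1 and Ticam1 fell against CON, with log2 fold changes of -0.79 ± 0.22 and -0.59 ± 0.13 (edgeR, adjusted p = 0.00891 and 0.00237). Against MAL, Ticam1 stood at -0.47, under the fold threshold. These calls were close to the threshold, and against CON 1 adaptor was called lower by DESeq2, with RLE scaling, or without the MAL-BG libraries 2, 5, and 7, and 0 with length and GC offsets and mean log2 CPM scaling. Ticam1 encodes TRIF, the adaptor of TLR3, and it averaged 46.7 CPM for CON, 43.0 for MAL, and 31.1 for MAL-BG. Myd88, the adaptor of nearly all other members, averaged 110 CPM in both CON and MAL and 95.9 CPM in MAL-BG (-0.20 ± 0.14 against CON, edgeR, adjusted p = 0.252). Of 15 kinases and ubiquitin ligases, edgeR called 0 in either MAL-BG comparison, with 5 at an unadjusted p under 0.05 against CON and 4 against MAL, and DESeq2 called 0. With microglia marker scaling 8 and 10 of them were called lower, where 9005 and 8331 of all 14565 genes were called, nearly all as lower.

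Feedback inhibitors, NF-kB subunits, and cytokines accounted for most of the falls. Of 10 inhibitors, 4 fell and 2 rose against CON. Tnfaip3, which encodes the ubiquitin-editing enzyme A20, fell by 2.49 on the log2 scale (SE 0.25, edgeR, adjusted p = 5.75e-06), from 1606, 850, 913, and 910 CPM in the CON libraries to a range of 110 to 292 CPM in MAL-BG. Nfkbie and Nfkbia, which encode inhibitors of NF-kB, fell as well, with log2 fold changes of -1.98 and -1.40 against CON. The inhibitors that rose were Sigirr and Il1rl1, named here after their values were seen. Against MAL, Il1rl1 was not called, at 0.49. Of 11 transcription factors, Rel, Nfkb2, and Irf1 fell, with log2 fold changes of -2.72, -1.03, and -1.20 against CON, and 0 rose. Of 14 cytokines and chemokines, 8 fell and 2 rose against CON. Tnf had 287, 222, 231, and 241 CPM in CON and 125, 99.1, 121, 258, and 242 CPM in MAL, and ranged from 26.7 to 100 CPM in MAL-BG (-2.14 ± 0.30 against CON, edgeR, adjusted p = 7.02e-05). Cxcl1, Il1a, and Cxcl2 fell, with log2 fold changes of -3.93, -2.80, and -2.44 against CON and -2.26, -1.93, and -2.09 against MAL. Ccl3 and Ccl5, named after their values were seen, rose by 0.80 and 0.94 against CON, though with microglia marker scaling 0 cytokines and 0 inhibitors were called higher. Il1b fell against CON by 0.91 (edgeR, adjusted p = 0.0153), while against MAL it stood at -0.19 ± 0.27 (edgeR, adjusted p = 0.577). Early response markers, which cells induce within minutes, also had a lower mean sum in MAL-BG. They lay at 18335 to 37594 CPM in CON, 19865 to 43667 in MAL, and 8669 to 24274 in MAL-BG (exact permutation tests, p = 0.0515 against CON and p = 0.00379 against MAL), and 5 and 7 of the 9 were called lower. The mean sum of these markers was 23884 CPM in CON and 28959 in MAL (exact permutation test, p = 0.437). The part of the early response markers in the falls was not tested.

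**Figure D5:**
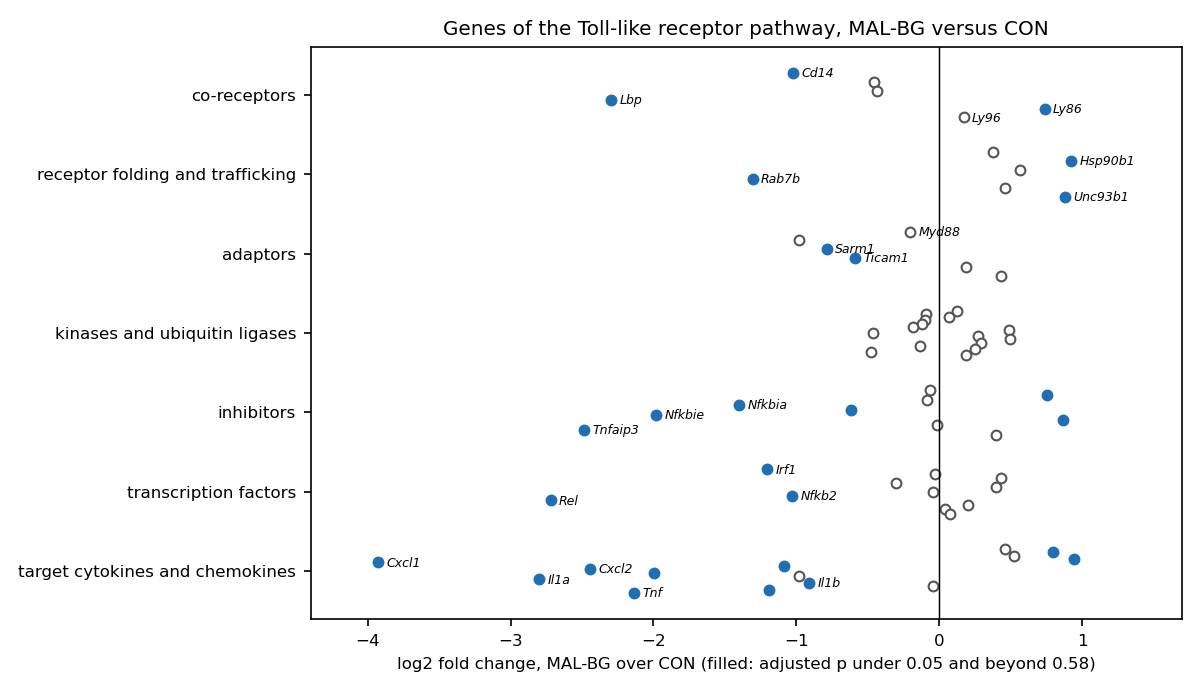
Log2 fold changes between MAL-BG and CON (horizontal axis) of 68 genes of the Toll-like receptor pathway in 7 lists (rows), with filled points for called genes and names for those described in the text. The cytokine, inhibitor, and transcription factor lists reach furthest down, to -3.93 for Cxcl1, and the 15 kinases and ubiquitin ligases hold no filled point.

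The patterns of the members over the 16 libraries were compared with those of 12571 genes that had a mean log2 CPM above 1, by the root mean square difference of centred log2 CPM. Most alike to Tlr3 were Pigc, B4galt4, and Champ1, with differences of 0.10, 0.12, and 0.12. Tlr9 was followed most closely by Cd180 (0.14), Abca9 (0.18), and Rnf180 (0.22). For Tlr4 they were the microglial transcription factor Sall1 (0.14), Tlr7 (0.15), and Nol9 (0.16), and Tlr7 was the nearest member to Tlr4. Tlr13 lay closest to Cttnbp2nl, the Src family kinase Lyn, and Sla (0.11, 0.11, and 0.12). Tlr7 lay closest to Itga9, Mapk14, and Rptor (0.12, 0.13, and 0.13). For Tlr2 they were Jak3, Otud5, and Man2c1 (0.14, 0.14, and 0.15), for Tlr1 Dagla, Zfp691, and Capn3 (0.13, 0.14, and 0.14), and for Tlr6 Nop2, Aup1, and Ndst2 (0.10, 0.11, and 0.12). For Tlr5 they were Sh2b2, Casp8, and Tug1 (0.20, 0.23, and 0.25). No gene came near Tlr8, for which the closest 3, 9930111J21Rik1, Supt20, and Krt80, differed by 0.62 to 0.66.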

How the data were processed

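RNA of CD11b+ brain cells was analysed in 16 libraries (7 MAL-BG, 5 MAL, and 4 CON), which the study gives as separate mice. The authors deposited raw counts per gene, obtained with HTSeq after STAR alignment to GRCm38.p6 of paired 42-base reads from stranded poly(A) libraries. The annotation, counting mode, and strand option are not given in the sources used here. Columns were assigned to groups by their names, whose running numbers match no sample title and serve only as library numbers. In 27 rows the gene name reads as a date, none of them a member. The study's code adds a batch term, which was not fitted here because the letters in the sample titles, which may mark batches, could not be tied to the columns of counts.

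A gene was tested if 4 or more libraries held over 10 counts of it. After TMM scaling, edgeR 4.0.16 (R 4.3.3, limma 3.58.1) fitted all 3 groups in 1 quasi-likelihood model, with Benjamini-Hochberg adjustment over all 14565 genes. Log2 CPM used a prior count of 2. Standard errors are the log2 fold change over the root of F. Exon lengths, strands, and the positions of the shared stretch come from GENCODE annotation of GRCm38, and gene spans and promoter sequences from RefSeq. The steps were tested on simulated data. Totals of at least 10312703 counts a library set the counting error, and replicates differed by more than it (lowest chi-square ratio to its degrees of freedom 9.57 in 37 pairs), so precision rests on the spread between libraries.

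All 10 members are named. From the pathway lists, genes called in both MAL-BG comparisons are named, at most the 3 with the largest fold change against CON a list, with Myd88, Ticam1, Unc93b1, Cd14, Ly96, Tnf, and Il1b in any case, and for each member the 3 genes with the most alike pattern. The members and lists were chosen with earlier results of these data known. Marker lists of 14 cell types and states were summed in CPM and compared with exact permutation tests. Alternatives were other scalings, length and GC offsets (known for 99.3% of genes), DESeq2 1.42.0, other filters, no fold threshold, 2-group fits, thinned libraries, and each library left out in turn.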

Additional observations from a re-analysis of the deposited data

Results flagged for a closer look

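In 48 groups of values looked at, 6 held a library far from the rest of its group, by a criterion that chance meets in about 1 of 20. Tlr1 reached 76.2 CPM in CON library 1, where the other 3 CON libraries had 31.3 to 38.5 CPM. In the same library the early response markers summed to 37594 CPM and the border macrophage markers to 2343 CPM, the highest of CON. In MAL library 4 the border macrophage markers summed to 2114 CPM, beside 1044 to 1265 CPM in the other 4. In MAL-BG library 5 the neutrophil markers summed to 14356 CPM, and in MAL-BG library 3 the choroid plexus markers summed to 16522 CPM. No explanation of these values was tested.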

How the results depend on the processing

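The calls of Tlr3 and Tlr8 kept their direction and side of the threshold in most settings. Exceptions were microglia marker scaling, under which Tlr3 was not called, and the demand for more than 10 counts in all libraries, which removed Tlr8 and left 1 receptor called in each comparison. Microglia marker scaling called 7 receptors against CON and 8 against MAL, and 44 and 42 pathway genes in place of 27 and 25, and with no fold threshold 4 receptors passed against CON. Tlr2 was called under that scaling and, against CON, with length and GC offsets (-0.61). Microglia marker scaling also turned the sign of Tlr4 (-0.45 and -0.67), Tlr6 (-0.72 and -0.74), Tlr7 (-0.60 and -0.69), and Tlr13 (-0.27 and -0.49) against CON and MAL. The number of genes called among all tested moved by more than 1.5 times only there, to 9005 against CON (from 4820) and 8331 against MAL (from 4423), of which 0.888% and 0.984% were higher. Tlr1 against CON turned to 0.074 with length and GC offsets and mean log2 CPM scaling. Values near 0 turned sign with length and GC offsets (Tlr6, -0.075 against CON and -0.096 against MAL, and Tlr7, -0.028 against MAL), with more than 10 counts in all libraries (Tlr6, -0.00063 and -0.054), and for Tlr6 against MAL with upper-quartile scaling (-0.025), with the 2 groups alone (-0.0016), and with thinned libraries (-0.0061). Leaving out MAL-BG libraries 2, 5, and 7 together, an alternative chosen after seeing the data, gave 0.031 for Tlr1 and 0.0089 for Tlr9 against CON. With 1 library left out at a time, 2 to 3 receptors were called against CON and against MAL, and 0 between MAL and CON, while 24 to 28 and 21 to 26 pathway genes were called. Signs turned within the ranges of Tlr1 (-0.17 to 0.33 against CON), Tlr6 (-0.050 to 0.30 against CON and -0.082 to 0.10 against MAL), Tlr4 (-0.11 to 0.18 against MAL), and Tlr7 (-0.086 to 0.17 against MAL), and between MAL and CON of Tlr2 (-0.13 to 0.18), Tlr5 (-0.23 to 0.41), and Tlr6 (-0.048 to 0.30). Apart from the scaling itself, the cause was not tested. No paired analysis was possible because the columns of the counts carry no sample titles, so the planned replicate block was not run. The depth limits Tlr8 and Tlr11 most.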

Other observations

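Tlr12 and Tlr11 stand in the same table and were looked at after the values of the 10 members had been seen. Tlr12, a mouse receptor that recognizes profilin of protozoa together with TLR11, had 55.5, 26.8, 38.2, and 26.7 CPM in the CON libraries 1 to 4. It had 40.0, 34.5, 29.3, 57.6, and 37.0 CPM in the MAL libraries 1 to 5. In MAL-BG it ranged from 71.5 to 145 CPM with a median of 125, above all 9 other libraries. The log2 fold change was 1.64 ± 0.26 (SE) against CON and 1.53 ± 0.24 against MAL (edgeR's quasi-likelihood test, adjusted p = 0.000175 and 0.000152). Over 12 settings of the processing it stayed between 0.92 and 1.83 against CON and between 0.86 and 1.68 against MAL, called in all 12, the lowest values being those with microglia marker scaling. Tlr11 was near the limit of detection, with 3 to 26 counts a library, and was not called in the main test (-0.54 ± 0.53 against CON and -1.19 ± 0.48 against MAL, edgeR, adjusted p = 0.425 and 0.0552). Of 11 settings, 1 called it lower against CON and 3 against MAL.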
